A study of Xenopus tropicalis with 12 samples.

Results

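The animal cap and the lateral marginal zone of Xenopus tropicalis early gastrula embryos were compared gene by gene, with attention to the transcription factor (TF) genes. Embryos at stage 10 to 10.25 of the Nieuwkoop and Faber series were cut into 5 regions (animal cap, lateral, dorsal and ventral marginal zones, and vegetal mass). About 30 explants of a region were pooled for each library, while lateral pools held both lateral pieces of each embryo. The series text itself gives stage 10.5, and no mutation or treatment is named for any group. The comparison rests on 4 libraries, namely the animal caps of clutches 1 and 2 (AC1, AC2) and the lateral marginal zones of the same clutches (LM1, LM2), of 12 libraries in all. The 6 libraries of the other 3 regions entered the same model to estimate the spread. All 26550 gene models of the v9 annotation were used. TFs were those of the study's TF catalog, of which 1197 have a gene model, 1034 of them with a gene symbol.

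The animal cap is the roof of the blastocoel and gives rise to epidermis and neural ectoderm. The marginal zone is the equatorial ring between it and the yolky vegetal cells, and forms mesoderm in response to Nodal signals from the vegetal side. In Xenopus the maternal T-box factor VegT starts this cascade, and Mix/Bix-type homeobox factors, Eomes and Brachyury act in it. Lateral mesoderm lies between the dorsal organizer (Spemann organizer) and the ventral mesoderm, and contributes to somites and more lateral tissue. The question addressed here was which TFs marked lateral mesoderm over ectoderm, and which ectodermal TFs were lower there.

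Expected counts ranged from 14634564 to 29166516 per region library, at 27126361 in AC1, 15030194 in AC2, 27352268 in LM1 and 26335503 in LM2. For a gene of median length, 3 counts stood for 0.126 to 0.216 TPM in these 4 libraries (TPM is the transcript abundance corrected for length and depth). The region labels were checked against marker lists by summed level. The 6 mesoderm markers (t, eomes, myf5, myod1, cdx4, mespb) summed to 77.4 and 26.6 TPM in AC1 and AC2, against 1560 and 1320 TPM in LM1 and LM2, and only 1 of them was listed at 0 in 1 animal cap (myod1, AC2). The 6 vegetal endoderm markers summed to 80.6 and 23.1 TPM in the animal caps, with none at 0, against 1568 and 873 TPM in the lateral libraries. Vegetal masses held 6926 and 7601 TPM of the same endoderm markers. The 7 ectoderm markers summed to 3149 and 3868 TPM in the animal caps, against 1677 and 2440 TPM in the lateral libraries. The ectoderm list was therefore not absent from the lateral pieces. The 6 organizer markers summed to 179 and 126 TPM in the animal caps and to 412 and 311 TPM in the lateral libraries, against 1172 and 1394 TPM in the dorsal libraries. In such bulk samples, fewer cells of a type and less RNA per cell cannot be told apart.

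Of 15727 genes tested, 196 were higher and 364 lower in the animal cap than in the lateral marginal zone (edgeR's quasi-likelihood test with clutch as a block, Benjamini-Hochberg adjusted p below 0.05). These are 1.25% and 2.31% of the genes tested, or 3.56% in all. Among 915 TFs tested, 28 were higher (3.06%) and 77 lower (8.42%) in the animal cap, 11.5% in all. The other 282 TFs did not pass the filter on low counts, which a gene could pass on its level in a single region. Further limits, a mean TPM ratio of 2 or more and 1 TPM or more in the higher region, left 16 TFs enriched in the animal cap and 72 enriched in the lateral marginal zone. These are 1.75% and 7.87% of the TFs, against 0.769% and 1.93% of all genes tested by the same rule. The median log2 fold change (animal cap over lateral, used throughout) was -0.005 over all genes tested and -0.006 over the TFs. Without the clutch block, 125 genes and 35 TFs were called. Only 1 of the 16 (klf2) and 34 of the 72 enriched TFs kept their call. Leaving out a library gave 355 genes and 72 TFs without AC1, 341 and 69 without AC2, 252 and 57 without LM1, and 327 and 65 without LM2.

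**Figure D1:**
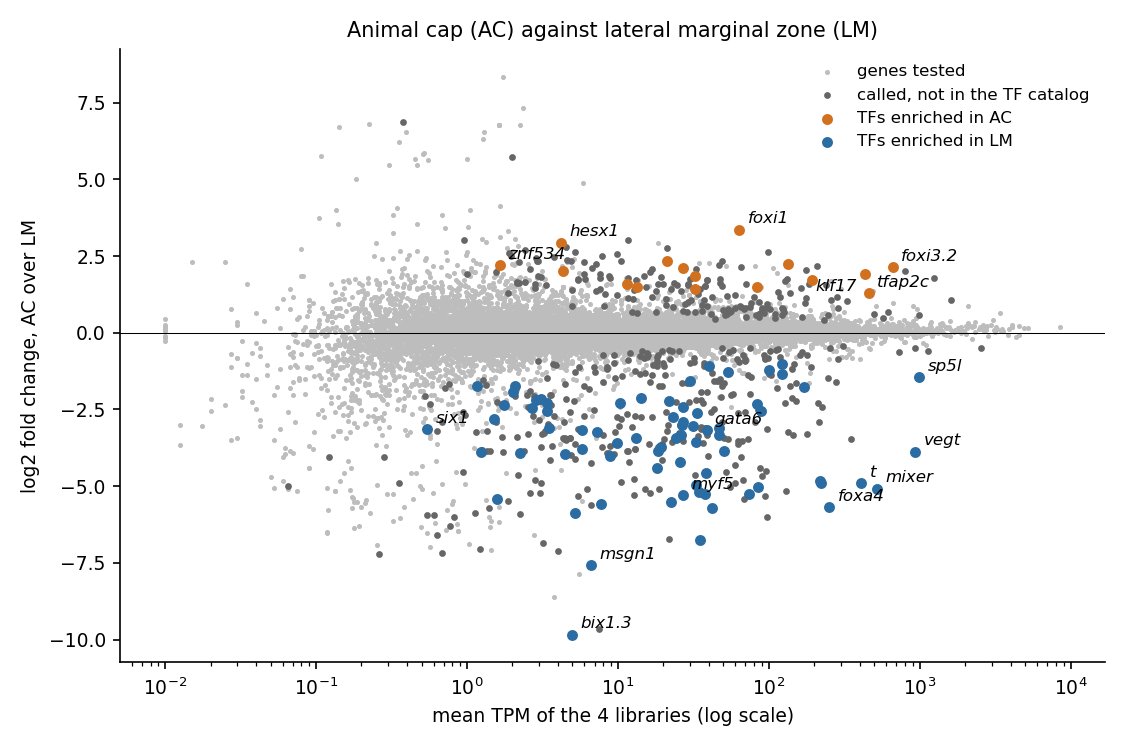
Fitted log2 fold change of the animal cap over the lateral marginal zone (vertical axis) against the mean TPM of the 4 libraries (horizontal axis, log scale), 1 point for each of 15727 genes tested. The 16 TFs enriched in the animal cap lie between log2 fold changes of 1.28 and 3.36, and the 72 enriched in the lateral marginal zone lie between -1.02 and -9.84, so that the lateral TFs reach further from 0. The end at -9.84 is bix1.3, which had no count in either animal cap, so that the size of its fitted value is not measured.

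The TFs higher in the animal cap were led by Foxi and Dlx genes, which are known for roles in early non-neural ectoderm. The forkhead gene foxi1 (Xetrov90007506) was listed at 141 and 90.2 TPM in AC1 and AC2, against 7.81 and 16.1 TPM in LM1 and LM2 (log2 fold change 3.36 ± 0.42 (SE), adjusted p = 0.0053). Its paralog foxi3.2 (Xetrov90000423) was the most abundant of the 16 TFs enriched in the animal cap, with 1014 and 1131 TPM in the animal caps and 204 and 296 TPM in the lateral libraries (log2 fold change 2.15 ± 0.31 (SE), adjusted p = 0.0115). In both genes the animal caps lay above every lateral library, by 10.3-fold and 4.44-fold in the fitted values. The libraries of the regions did not overlap in TPM for all 16 TFs enriched in the animal cap and 71 of the 72 lateral ones. Selection of these TFs favours such a separation. Its share over all genes tested was not counted, so that it adds no support to the differences. The distal-less homeobox gene dlx5 (Xetrov90030194) had 169 and 266 TPM in the animal caps, against 30.6 and 67.2 TPM in the lateral libraries (log2 fold change 2.24 ± 0.4 (SE), adjusted p = 0.0277). Its relative dlx3 (Xetrov90024886) was lower in abundance, at 18.6 and 49.95 TPM against 2.96 and 12.7 TPM in the lateral libraries (log2 fold change 2.33 ± 0.31 (SE), adjusted p = 0.00235). Both dlx genes had more transcript in clutch 2 than in clutch 1 in either region, so that the ratio within a clutch was steadier than the level. The AP-2 gene tfap2c (Xetrov90025902), a regulator of epidermis and neural crest, had 559.8 and 728 TPM in the animal caps and 211 and 338 TPM in the lateral libraries (log2 fold change 1.28 ± 0.26 (SE), adjusted p = 0.046). Leaving out 1 library at a time ended the call, with the adjusted p in parentheses, of foxi3.2 without AC1 (0.0817), AC2 (0.0746), LM1 (0.159) and LM2 (0.0621), dlx5 without AC1 (0.18), AC2 (0.175), LM1 (0.345) and LM2 (0.129) and tfap2c without AC1 (0.198), AC2 (0.228), LM1 (0.441) and LM2 (0.113). Without the clutch block, none of these genes was called (adjusted p of 0.055 for foxi1, 0.12 for foxi3.2, 0.624 for dlx5, 1 for dlx3 and 0.864 for tfap2c). In a fit of the 4 libraries alone foxi1 was not called (adjusted p = 0.254), while the other 4 genes were.

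Krüppel-like, Prdm, LIM homeobox and Iroquois genes made up much of the rest. The zinc finger gene klf17 (Xetrov90011845), known from the hatching gland of zebrafish, had 622 and 744 TPM in the animal caps, against 162 and 212 TPM in the lateral libraries (log2 fold change 1.91 ± 0.14 (SE), adjusted p = 8.59e-05). The related klf2 (Xetrov90001963), known from mammalian blood vessels, had 52.8 and 35.5 TPM against 10.2 and 10.1 TPM in the lateral libraries (log2 fold change 2.11 ± 0.24 (SE), adjusted p = 0.0011). It was the single TF of this group that was also called without the clutch block (adjusted p = 0.0487). For prdm14 (Xetrov90016898), which acts in germ cell precursors and pluripotent cells of the mouse, animal caps had 37.1 and 63.1 TPM and lateral libraries 8.96 and 20.8 TPM (log2 fold change 1.85 ± 0.3 (SE), adjusted p = 0.0103). The LIM homeobox gene lhx5 (Xetrov90002706) had 229.7 and 358 TPM in the animal caps, against 63.3 and 126 TPM in the lateral libraries (log2 fold change 1.73 ± 0.15 (SE), adjusted p = 0.000193). Expression of irx2 (Xetrov90015965), an Iroquois gene of the neural plate, was 101 and 142 TPM against 31.2 and 60.1 TPM in the lateral libraries (log2 fold change 1.5 ± 0.21 (SE), adjusted p = 0.00346). In lhx5, irx2 and prdm14 the groups did not overlap, as in all 16 TFs enriched in the animal cap. The lateral library of clutch 2 held the higher of their 2 lateral values. Losing a library ended the call of prdm14 without AC1 (0.076), AC2 (0.0607), LM1 (0.182) and LM2 (0.0719) and irx2 without LM1 (0.0642). Without the clutch block, klf17 (adjusted p = 0.0902), prdm14, lhx5 and irx2 (each 1) were not called.

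Of the 10 largest differences in favour of the animal cap, 3 were in TFs of low abundance. The homeobox repressor hesx1 (Xetrov90030766), needed for the forebrain and pituitary of the mouse, had 5.49 and 9.32 TPM in the animal caps, against 0.74 and 1.29 TPM in the lateral libraries (log2 fold change 2.94 ± 0.5 (SE), adjusted p = 0.00913). The blood progenitor gene myb (Xetrov90013419) had 9.16 and 4.79 TPM in the animal caps and 1.85 and 1.62 TPM in the lateral libraries (log2 fold change 2.01 ± 0.27 (SE), adjusted p = 0.00238). The zinc finger gene znf534 (Xetrov90020202) was listed at 4.22 and 1.29 TPM against 0.53 and 0.57 TPM in the lateral libraries (log2 fold change 2.21 ± 0.44 (SE), adjusted p = 0.0217). All 3 were above every lateral library in both animal caps, as were all 16 TFs enriched there. More znf534 and myb transcript was in AC1 than in AC2, and more hesx1 transcript was in AC2. The remaining TFs enriched in the animal cap were nr6a1, an orphan nuclear receptor, myt1, a zinc finger gene of primary neurogenesis, and elf1, an Ets gene, with log2 fold changes of 1.42 ± 0.19, 1.49 ± 0.24 and 1.6 ± 0.22 (SE). A further 12 TFs were called higher in the animal cap at a TPM ratio below 2, among them the BMP-responsive id3 (952 and 1430.4 TPM in the animal caps, 531 and 936 TPM in the lateral libraries, log2 fold change 0.77 ± 0.11 (SE), adjusted p = 0.00415). Another was the stress response gene xbp1 (632 and 675 TPM in the animal caps, 363 and 376 TPM in the lateral libraries, log2 fold change 0.86 ± 0.12 (SE), adjusted p = 0.00378). With 1 library left out, the call was lost of hesx1 without AC1 (0.0564), LM1 (0.0766) and LM2 (0.156), myb without LM1 (0.0654), znf534 without AC1 (0.346) and LM1 (0.44), nr6a1 without LM1 (0.0601), myt1 without AC1 (0.0691), LM1 (0.105) and LM2 (0.12), elf1 without LM1 (0.0573), id3 without AC1 (0.0554), LM1 (0.0648) and LM2 (0.0513) and xbp1 without LM1 (0.0746). Without the clutch block none of the 8 was called, with adjusted p between 0.0721 (myb) and 1.

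**Figure D2:**
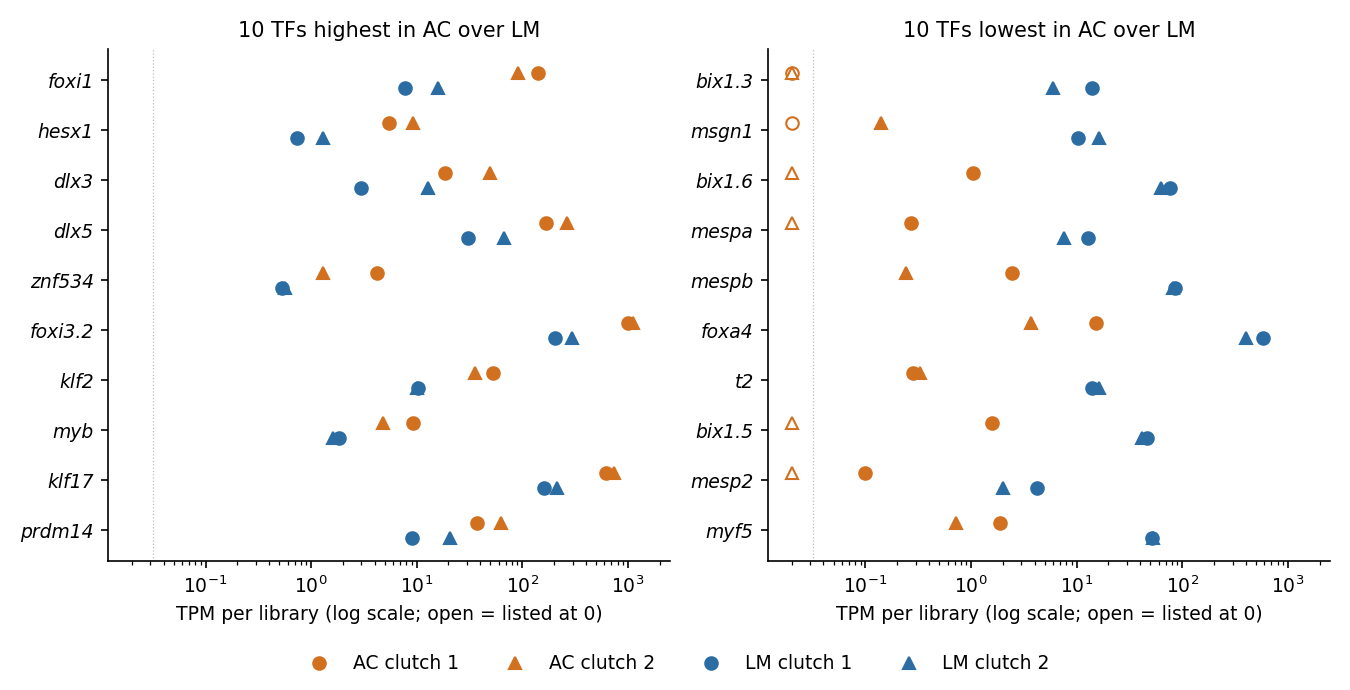
TPM in each library (horizontal axis, log scale) of the 10 named TFs with the largest (left) and the 10 with the most negative (right) fitted log2 fold change of animal cap over lateral marginal zone, with circles for clutch 1, triangles for clutch 2 and open symbols for values listed at 0. On the left, foxi1 sits at 141 and 90.2 TPM in the animal caps, above 7.81 and 16.1 TPM in the lateral libraries, and on the right foxa4 sits at 15.4 and 3.71 TPM in the animal caps, below 588 and 401 TPM.

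Not all genes associated with ectoderm were higher in the animal cap. In a list of 10 Foxi and animal pole genes, 4 were higher (foxi1, foxi3.2, lhx5, prdm14), 2 were lower (zic2 among them) and 4 were not called, with a median log2 fold change of 1.02. Of 18 surface ectoderm genes, 17 were tested and 5 were higher (dlx3, dlx5, klf17, tfap2c and, below a ratio of 2, ovol2), 2 were lower (gata3, tfap2e) and 10 were not called, with a median of 1.28. Of 22 neural ectoderm genes, 2 were higher (hesx1, irx2), 5 lower (zic2, zic5, irx3 and foxb1 among them) and 15 not called, with a median of -0.19. The first and the last of these lists share members such as sox2, sox3 and zic2, and all members were chosen with earlier results of these data known. Over all TFs tested, 3.06% were higher and 8.42% lower in the animal cap, against 1.25% and 2.31% of all genes tested. These list counts moved with the fit. The Foxi and animal pole list had 0 higher and 1 lower without the clutch block, the surface ectoderm list 0 and 0, and the neural list 0 and 1. With 1 library left out, 2 Foxi and animal pole genes were higher in each fit, 3 surface ectoderm genes without AC1 and 2 without each other library, and 1 neural gene without AC1 or LM2, 2 without AC2 and 0 without LM1. DESeq2 called 9 surface ectoderm genes higher and 2 lower, and 5 neural genes higher and 7 lower. The fit of the 4 libraries alone gave 10 and 2 surface ectoderm genes, 5 and 8 neural genes, and 4 and 3 of the Foxi and animal pole list.

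Several well known epidermal TFs had a large difference whose call depended on the fit, and which did not pass the test over the 10 region libraries. AP-2 alpha, tfap2a (Xetrov90016561), had 531 and 854 TPM in the animal caps, against 198 and 364 TPM in the lateral libraries (log2 fold change 1.35 ± 0.29 (SE), adjusted p = 0.0644). Grainyhead-like 3, grhl3 (Xetrov90004885), a regulator of the epidermal barrier, had 431 and 443 TPM in the animal caps and 173 and 163 TPM in the lateral libraries (log2 fold change 1.42 ± 0.4 (SE), adjusted p = 0.169). The Krüppel-like gene klf5 (Xetrov90006082) had 123 and 237 TPM in the animal caps and 28.7 and 68.0 TPM in the lateral libraries (log2 fold change 1.96 ± 0.5 (SE), adjusted p = 0.13). In each of these genes both animal caps lay above both lateral libraries. The same held for foxi3.1 (4.35 and 2.95 TPM in the animal caps, 0.22 and 0.76 TPM in the lateral libraries, adjusted p = 0.0738). It also held for the homeobox gene otx1, of the neural ectoderm list (76.0 and 94.4 TPM against 16.4 and 22.5 TPM, adjusted p = 0.0659). These 5 genes were chosen with their values known. The share of all genes tested with such a separation was not counted, so that it adds no support to the differences. Unlike an animal cap gene, otx1 was highest in the vegetal mass, at 186 and 155 TPM. In a fit of the 4 libraries alone all 5 were called, with adjusted p of 7.67e-05 for tfap2a, 3.15e-05 for grhl3, 3.16e-05 for klf5, 3.15e-05 for otx1 and 0.0326 for foxi3.1. Those values rest on fewer libraries and lean more on the spread shared across genes, so that they are not stronger evidence than the main fit. DESeq2 called tfap2a (adjusted p = 1.93e-06), klf5 (0.0257) and otx1 (0.0037), and not grhl3 (0.123) or foxi3.1 (0.07). None of the 5 was called without the clutch block. Over all TFs, DESeq2 called 42 TFs higher in the animal cap in place of 28.

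The SoxB1 genes sox2 and sox3 and the Pou5f3 gene pou5f3.2, of families that hold cells of the early embryo uncommitted, were at high levels in both regions. The level of sox3 (Xetrov90020478) was 938 and 1284 TPM in the animal caps and 812 and 1351 TPM in the lateral libraries (log2 fold change 0.09 ± 0.29 (SE), adjusted p = 0.941). The level of sox2 was 179 and 204 TPM in the animal caps and 231 and 324 TPM in the lateral libraries (log2 fold change -0.48 ± 0.15 (SE), adjusted p = 0.183). A fit of the 4 libraries alone called sox2 lower in the animal cap (adjusted p = 0.0289), while DESeq2 did not call it (0.104). All 3 Pou5f3 genes went uncalled, with a median log2 fold change of 0.03. For pou5f3.2, the most abundant of them, the animal caps had 1927 and 2661 TPM and the lateral libraries 1805 and 2900.1 TPM (log2 fold change 0.02 ± 0.12 (SE), adjusted p = 0.977). In pou5f3.2 and sox3 both clutch 2 libraries lay above both clutch 1 libraries, so that the clutches differed by more than the regions did.

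Ectodermal or neural TFs that were lower in the animal cap formed a group of their own. The zinc finger gene zic2 (Xetrov90006003), which acts in neural plate and neural crest of Xenopus, had 65.5 and 53.3 TPM in the animal caps, against 164 and 120.4 TPM in the lateral libraries (log2 fold change -1.21 ± 0.16 (SE), adjusted p = 0.00265). Both animal caps were thus lower than either lateral library. The epidermal and blood gene gata3 (Xetrov90008376) had 0.83 and 1.54 TPM in the animal caps and 5.58 and 5.66 TPM in the lateral libraries (log2 fold change -2.27 ± 0.45 (SE), adjusted p = 0.0343). The AP-2 gene tfap2e (Xetrov90004913) had 1.42 and 0.76 TPM in the animal caps and 5.35 and 4.92 TPM in the lateral libraries (log2 fold change -2.17 ± 0.35 (SE), adjusted p = 0.009). Both were highest in the vegetal mass, at 42.5 and 31.2 TPM for gata3 and 33.2 and 23.5 TPM for tfap2e. The vegetal masses also held more zic2 than the lateral libraries, at 263 and 221 TPM (log2 fold change -0.68 ± 0.16 (SE), adjusted p = 0.0107, lateral over vegetal). In the dorsal libraries zic2 was at 235 and 233 TPM. Leaving out a library ended the call of gata3 without AC1 (0.28), AC2 (0.0918), LM1 (0.242) and LM2 (0.17) and tfap2e without AC2 (0.0709), LM1 (0.0569) and LM2 (0.0744). The fit without the clutch block ended that of zic2 (adjusted p = 0.0654), gata3 (adjusted p = 0.24) and tfap2e (adjusted p = 0.0654).

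**Figure D3:**
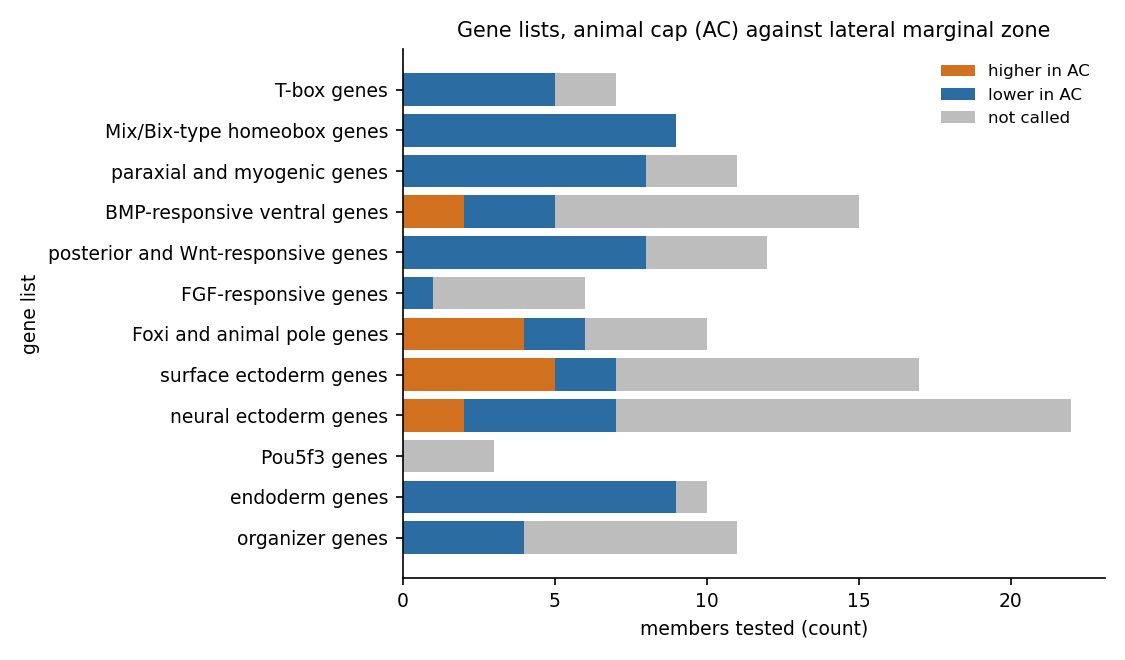
Number of tested members (horizontal axis) of 12 gene lists that were called higher in the animal cap, called lower in it, or not called. The Mix/Bix-type list has all 9 tested members lower in the animal cap, the surface ectoderm list has 5 of 17 higher, and the Pou5f3 list has none of 3 called.

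Among the TFs enriched in the lateral marginal zone, 39 of 72 had a mean TPM at least 10-fold lower in the animal cap, while 0 of the 16 TFs of the animal cap reached that ratio in the other direction. The median absolute log2 fold change was 3.33 in the 72 TFs and 1.96 in the 16. The direction was the same in both clutches for all 16 and all 72 TFs, which their selection by a test with the clutch as a block favours.

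T-box genes, several of which specify mesoderm, included some of the most abundant lateral TFs. Of 11 TFs with a T-box domain tested, 5 were lower in the animal cap (t, t2, vegt, eomes, tbx2), or 45.5%, where 8.42% of all TFs tested were lower. A list of 7 T-box genes chosen for this comparison held these 5 and 2 that were not called (tbx1, tbx3), with a median log2 fold change of -3.87. In the list 2 were lower in a fit of the 4 libraries alone, and 3 without LM1 or LM2. Brachyury, t (Xetrov90013794), a regulator of posterior mesoderm and notochord, had 36.0 and 15.8 TPM in the animal caps, against 828 and 758 TPM in the lateral libraries (log2 fold change -4.91 ± 0.34 (SE), adjusted p = 0.0004). Its paralog t2 (Xetrov90013793) had 0.28 and 0.33 TPM in the animal caps and 14.0 and 16.4 TPM in the lateral libraries (log2 fold change -5.57 ± 0.85 (SE), adjusted p = 0.0148). Both genes were far apart between the regions, and the lateral values of the clutches were close together. For eomes (Xetrov90016435), the animal caps had 22.8 and 6.57 TPM and the lateral libraries 491 and 360.5 TPM (log2 fold change -4.9 ± 0.37 (SE), adjusted p = 0.00061). The highest level was that of vegt (Xetrov90002928), which is stored as maternal transcript in the vegetal hemisphere, with 198 and 53.7 TPM in the animal caps against 1937 and 1548 TPM in the lateral libraries (log2 fold change -3.87 ± 0.48 (SE), adjusted p = 0.00788). In eomes and vegt the animal cap of clutch 1 held more transcript than that of clutch 2. Without 1 of the libraries the call ended of t2 without AC1 (0.174), AC2 (0.134), LM1 (0.104) and LM2 (0.08) and vegt without LM1 (0.0752) and LM2 (0.0599). In a fit of the 4 libraries alone, t (adjusted p = 0.103), eomes (0.142) and vegt missed the threshold, while without the clutch block all 5 genes were called.

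Mix/Bix-type homeobox genes, several of them targets of VegT and Nodal in Xenopus, were lower in the animal cap in all 9 tested members (against 8.42% of TFs tested), at a median log2 fold change of -5.08. The endoderm regulator mixer (Xetrov90012972) had 47.8 and 13.0 TPM in the animal caps, against 1281 and 738 TPM in the lateral libraries (log2 fold change -5.08 ± 0.4 (SE), adjusted p = 0.00081). The founding member mix1 (Xetrov90012973) had 22.8 and 6.2 TPM in the animal caps and 444 and 404 TPM in the lateral libraries (log2 fold change -4.84 ± 0.51 (SE), adjusted p = 0.00365). A related gene, sebox (Xetrov90004300), had 5.31 and 1.25 TPM in the animal caps and 143 and 144 TPM in the lateral libraries (log2 fold change -5.27 ± 0.42 (SE), adjusted p = 0.00071). In all 3 genes AC1 exceeded AC2, and both stayed below every lateral library. Among the bix1 copies, bix1.1 (Xetrov90012978) had 6.79 and 2.51 TPM in the animal caps against 209 and 119.7 TPM in the lateral libraries (log2 fold change -5.04 ± 0.5 (SE), adjusted p = 0.0022). The copy bix1.6 (Xetrov90012982) had 1.04 and 0 TPM in the animal caps against 76.3 and 63.3 TPM in the lateral libraries (log2 fold change -6.77 ± 0.61 (SE), adjusted p = 0.00126). The values of bix1.5 (Xetrov90012981) were 1.58 and 0 TPM against 46.9 and 41.4 TPM (log2 fold change -5.5 ± 0.75 (SE), adjusted p = 0.00956). In bix1.5 and bix1.6 AC2 was listed at 0. For bix1.3 (Xetrov90012976) no count was assigned in either animal cap, against 260 counts in the lateral libraries (13.9 and 6 TPM, adjusted p = 0.000728). This is at least 67.1-fold higher in the lateral marginal zone if the animal caps are set to 3 counts over both libraries. The remaining list member, bix1.4, was not tested and was listed at 0.47 and 1.17 TPM in the animal caps and at 0 in the lateral libraries. Reads of such near-identical copies were divided by RSEM's estimate, so that the level of each single copy is uncertain.

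The Mix-type gene mxtx1 (Xetrov90018120) differed strongly between the clutches. It had 7.63 and 0.71 TPM in AC1 and AC2, against 90.1 and 6.83 TPM in LM1 and LM2 (log2 fold change -3.33 ± 0.55 (SE), adjusted p = 0.0193), so that AC1 lay just above LM2 and the ranges overlapped. In every region the value of clutch 1 exceeded that of clutch 2, with 411 and 106 TPM in the vegetal masses, where it was highest. Its adjusted p was 0.33 without AC1, 0.0925 without AC2, 0.242 without LM1, 0.0557 without LM2 and 1 without the clutch block, so that each of these ended the call. For the other Mix/Bix-type genes given, the call was lost only of bix1.5 without LM1 (0.0866) and LM2 (0.0648) and, in the fit without the block, of bix1.5 (adjusted p = 0.0735). In a fit of the 4 libraries alone, mixer (adjusted p = 0.0792), mix1 (0.195), sebox (0.0583) and bix1.5 were not called, and 5 of the 9 were.

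Most genes of paraxial mesoderm and muscle were lower in the animal cap. Of 13 such genes, 11 were tested, 8 were lower in the animal cap (against 8.42% of TFs tested) and 3 were not called, with a median log2 fold change of -5.19. Mesogenin, msgn1 (Xetrov90015181), a basic helix-loop-helix factor of presomitic mesoderm, had 1 count in the animal caps (0 TPM in AC1, 0.14 TPM in AC2), against 329 counts in the lateral libraries (10.3 and 16.3 TPM, adjusted p = 4.27e-05). The ratio by counts was 255, with a 95% exact counting interval of 45.4 to 10100. The myogenic factor myf5 (Xetrov90007873) had 1.88 and 0.72 TPM in the animal caps and 51.9 and 53.5 TPM in the lateral libraries (log2 fold change -5.29 ± 0.65 (SE), adjusted p = 0.0053). The segmentation gene mespb (Xetrov90008917) had 2.43 and 0.24 TPM in the animal caps, against 85.1 and 81.5 TPM in the lateral libraries (log2 fold change -5.71 ± 0.59 (SE), adjusted p = 0.00238). Its relative mespa (Xetrov90008919) had 0.27 and 0 TPM in the animal caps against 12.9 and 7.54 TPM in the lateral libraries (log2 fold change -5.86 ± 0.56 (SE), adjusted p = 0.000429). Most of the little mesp transcript in animal caps was in AC1. For mesp2 there was 1 count in the animal caps and 62 in the lateral libraries (ratio 48, 95% exact counting interval 8.3 to 1930, adjusted p = 0.00209). The forkhead gene foxc1 (Xetrov90016156) had 2.49 and 0.93 TPM in the animal caps and 67.1 and 66.4 TPM in the lateral libraries (log2 fold change -5.19 ± 0.34 (SE), adjusted p = 0.000133). Snail, snai1 (Xetrov90025269), which acts in cells that leave an epithelium, was less restricted, with 31.3 and 22.6 TPM in the animal caps against 173 and 109 TPM in the lateral libraries (log2 fold change -2.33 ± 0.13 (SE), adjusted p = 1.5e-05). Leaving out an animal cap library ended the call of myf5 without AC1 (0.0677) and AC2 (0.057). The fit without the clutch block ended that of mesp2 (adjusted p = 0.0714). Counting intervals and limits cover counting error only.

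The myogenic gene myod1, a marker fixed for mesoderm, was at the limit of detection, with 1 count in the animal caps and 11 in the lateral libraries, and was not tested. The intermediate mesoderm and kidney gene osr2 (Xetrov90017042), outside these lists, had 2.49 and 1.03 TPM in the animal caps, against 80.2 and 66.8 TPM in the lateral libraries (log2 fold change -5.27 ± 0.24 (SE), adjusted p = 7e-06). It was called under every alternative run. Its level was highest in the vegetal mass, at 254 and 278 TPM (log2 fold change -1.77 ± 0.18 (SE), adjusted p = 0.000113, lateral over vegetal). The dorsal libraries had 80.7 and 64.5 TPM of osr2 and the ventral ones 102 and 80.0 TPM, near the lateral level.

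Posterior and Wnt-responsive genes were lower in the animal cap in 8 of 12 tested members (of 13), with 4 not called, a median log2 fold change of -2.9 and 8.42% of TFs tested lower. Only 2 of the 12 were called lower without the clutch block, and in a fit of the 4 libraries alone 5 were. The caudal genes, which activate posterior Hox genes, were at 14.1 and 3.27 TPM (cdx4, Xetrov90020390) and 8.47 and 2.06 TPM (cdx2, Xetrov90006715) in the animal caps. The lateral libraries had 102 and 66.2 TPM of cdx4 (log2 fold change -3.32 ± 0.35 (SE), adjusted p = 0.00231) and 74.8 and 46.6 TPM of cdx2 (log2 fold change -3.56 ± 0.37 (SE), adjusted p = 0.00219). The retinoic acid responsive hoxd1 (Xetrov90024227) had 18.9 and 3.05 TPM in the animal caps, against 104 and 62.0 TPM in the lateral libraries (log2 fold change -3.1 ± 0.43 (SE), adjusted p = 0.00955). In these 3 genes AC1 held more transcript than AC2, and both lay below the lateral libraries. The homeobox gene evx1 (Xetrov90015898) had 0.74 and 0.76 TPM in the animal caps and 8.96 and 12.7 TPM in the lateral libraries (log2 fold change -3.79 ± 0.31 (SE), adjusted p = 0.00015). The Wnt target sp5l (Xetrov90006342) was abundant in both regions, with 623 and 434 TPM in the animal caps and 1544 and 1369 TPM in the lateral libraries (log2 fold change -1.44 ± 0.12 (SE), adjusted p = 0.000126). Leaving out 1 library ended none of these 5 calls, while without the clutch block cdx4 (adjusted p = 0.0699), cdx2 (0.0736) and hoxd1 (0.408) were not called. In the fit of the 4 libraries alone cdx4 (adjusted p = 0.165), cdx2 (0.0759) and hoxd1 (0.247) were not called either.

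Among BMP-responsive genes calls were found in both directions. Of 16 BMP-responsive ventral genes, 15 were tested, 2 were higher in the animal cap (id2, id3), 3 were lower (ventx3.1, ventx3.2, msx1) and 10 were not called, with a median of -0.53, where 3.06% of TFs tested were higher and 8.42% lower. In a fit of the 4 libraries alone 2 were higher and 7 lower, DESeq2 called 2 higher and 5 lower, and without the clutch block none was called. With 1 library left out, 0 were higher and 1 lower without AC1 or LM1, 1 and 1 without AC2, and 0 and 2 without LM2. The homeobox gene msx1 (Xetrov90000496) had 20.9 and 30.6 TPM in the animal caps, against 51.2 and 58.9 TPM in the lateral libraries (log2 fold change -1.08 ± 0.14 (SE), adjusted p = 0.00161). The ventralizing gene ventx2.1 was at 419.8 and 345 TPM in the animal caps and 454 and 533 TPM in the lateral libraries (log2 fold change -0.32 ± 0.24 (SE), adjusted p = 0.672). Of 7 FGF-responsive genes, 6 were tested and egr1 was called (1.18 and 0.69 TPM in the animal caps, 3.92 and 2.49 TPM in the lateral libraries, log2 fold change -1.74 ± 0.23 (SE), adjusted p = 0.00235). Without the clutch block neither msx1 (adjusted p = 1) nor egr1 (0.147) was called, while in the fit of the 4 libraries alone 3 of the 6 FGF-responsive genes were lower.

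Endoderm genes were also higher in the lateral pieces than in the animal cap, in 9 of 10 members (against 8.42% of TFs tested), with 1 not called (foxa2) and a median log2 fold change of -3.30. The count was 6 without the clutch block, without AC2 or without LM1, and 10 by DESeq2. The HMG box gene sox17a (Xetrov90016800), a determinant of endoderm, had 9.52 and 2.61 TPM in the animal caps, against 127 and 62.7 TPM in the lateral libraries (log2 fold change -3.87 ± 0.43 (SE), adjusted p = 0.00363). For gata6 (Xetrov90016691), the animal caps had 7.95 and 7.17 TPM and the lateral libraries 73.5 and 66.0 TPM (log2 fold change -3.16 ± 0.12 (SE), adjusted p = 2.84e-06). For gata4 (Xetrov90026121) the animal caps had 4.04 and 0.85 TPM and the lateral libraries 54.3 and 43.3 TPM (log2 fold change -4.21 ± 0.46 (SE), adjusted p = 0.00354). The clutches agreed closely for gata6, which kept its call under every alternative run. The call of gata4 ended in a fit of the 4 libraries alone (adjusted p = 0.148). These 3 genes peaked in the vegetal mass, at 1233 and 1470.1 TPM for sox17a, 487 and 423 TPM for gata6 and 600.4 and 671 TPM for gata4. Whether vegetal cells were included in the lateral pieces was not tested. Their summed endoderm markers were 22.6% of the vegetal sum in clutch 1 and 11.5% in clutch 2.

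Of 11 organizer genes, 4 were lower in the animal cap (gsc, lhx1, foxa4, hhex) and 7 were not called, with a median log2 fold change of -2.37, where 8.42% of TFs tested were lower. The list shares hhex and foxa2 with the endoderm list, and otx2 among others with the neural ectoderm list. In the vegetal mass the 4 had means of 211 (gsc), 146 (lhx1), 1085 (foxa4) and 316 TPM (hhex), above their lateral means. That difference was called for gsc and hhex, and not for lhx1 and foxa4. DESeq2 called 9 of the 11 lower, and a fit of the 4 libraries alone called 6, not (adjusted p = 0.0333) among them. Goosecoid, gsc (Xetrov90021259), the classic organizer homeobox gene, had 2.03 and 0.87 TPM in the animal caps, against 41.0 and 28.3 TPM in the lateral libraries (log2 fold change -4.41 ± 0.54 (SE), adjusted p = 0.0055). The forkhead gene foxa4 (Xetrov90010996) had 15.4 and 3.71 TPM in the animal caps and 588 and 401 TPM in the lateral libraries (log2 fold change -5.68 ± 0.49 (SE), adjusted p = 0.00126). The LIM homeobox gene lhx1 (Xetrov90004734) had 3.25 and 0.55 TPM in the animal caps and 69.4 and 59.4 TPM in the lateral libraries (log2 fold change -4.95 ± 0.52 (SE), adjusted p = 0.00275). The notochord gene not was at 144 and 75.0 TPM in the animal caps and 218 and 166 TPM in the lateral libraries (log2 fold change -0.79 ± 0.27 (SE), adjusted p = 0.25). The anterior homeobox gene otx2 was at 28.4 and 49.7 TPM in the animal caps and 77.1 and 56.1 TPM in the lateral libraries (log2 fold change -0.71 ± 0.41 (SE), adjusted p = 0.593). For these last 2 genes the animal cap level was within a factor of 3 of the lateral level in both clutches. In that fit of the 4 libraries, foxa4 (adjusted p = 0.109) and lhx1 (0.156) were not called. Leaving out 1 library ended the call of hhex without AC2 (0.0521) and LM1 (0.0578).

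Setting the lateral marginal zone against the vegetal mass divided the 72 lateral TFs. Lateral libraries were higher than vegetal ones for 17 of them, lower for 31 and not called for 24. Of all genes tested, 14.1% were higher and 15.3% lower in the lateral libraries. Selection of the 72 for high values in the same lateral libraries favours calls of higher lateral levels. Among the 17 was t, at 828 and 758 TPM in the lateral libraries against 173 and 180.3 TPM in the vegetal masses (log2 fold change 2.26 ± 0.3 (SE), adjusted p = 0.00167, lateral over vegetal). Another was myf5, at 51.9 and 53.5 TPM against 7.95 and 4 TPM (log2 fold change 3.3 ± 0.53 (SE), adjusted p = 0.00403). In both genes the lateral libraries lay above the vegetal ones. The largest such difference among the 17 was that of hoxd1, with 104 and 62.0 TPM in the lateral libraries against 4.24 and 2.66 TPM in the vegetal masses (log2 fold change 4.77 ± 0.49 (SE), adjusted p = 0.000557). It was followed by cdx4, with 102 and 66.2 TPM against 4.82 and 2.82 TPM (log2 fold change 4.58 ± 0.38 (SE), adjusted p = 0.000182). Next came the neural crest and germ layer gene foxd3, with 27.2 and 45.8 TPM against 1.78 and 1.99 TPM (log2 fold change 4.35 ± 0.47 (SE), adjusted p = 0.00047). These genes were therefore lower on both sides of the lateral marginal zone, in the animal cap and in the vegetal mass. For foxd3 the animal caps had 9.02 and 5.5 TPM (log2 fold change -2.21 ± 0.39 (SE), adjusted p = 0.0219, animal cap over lateral). That call was lost without the clutch block (adjusted p = 0.136) and in the fit of the 4 libraries alone (0.0858). It was also lost without the filter on low counts and when AC2 or LM2 was left out. The log2 fold change of foxd3 was -1.76 without AC2 and -1.78 without LM2, and -2.86 without AC1 and -2.65 without LM1. The dorsal libraries held more foxd3 than the lateral ones, at 90.9 and 143 TPM, a difference that was not called (adjusted p = 0.128). Among the 31 were sox17a, gata6, gata4 and mixer, the last at 1281 and 738 TPM in the lateral libraries against 4494 and 4345 TPM in the vegetal masses (log2 fold change -2.13 ± 0.34 (SE), adjusted p = 0.00439). The 24 included eomes, with 491 and 360.5 TPM in the lateral libraries against 645 and 440.4 TPM in the vegetal masses (adjusted p = 0.62). They also included vegt (1937 and 1548 TPM against 2542 and 2879.5 TPM, adjusted p = 0.375). The paraxial genes msgn1 (10.3 and 16.3 TPM against 9.24 and 16.7 TPM, adjusted p = 0.666) and mespb (85.1 and 81.5 TPM against 51.1 and 92.4 TPM, adjusted p = 0.632) were likewise uncalled. Mean levels of the 72 TFs were highest in the vegetal mass for 37, in the ventral marginal zone for 16, in the dorsal one for 13 and in the lateral one for 6. All 16 animal cap TFs had their highest mean in the animal cap and were also called higher there than in the vegetal mass. Their selection for high values in the same animal cap libraries favours both results. Of all genes tested, 19.5% were called higher in the animal cap than in the vegetal mass. The comparison of lateral with vegetal libraries called 357 TFs with the clutch block and 72 without it, and 196 without LM2.

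**Figure D4:**
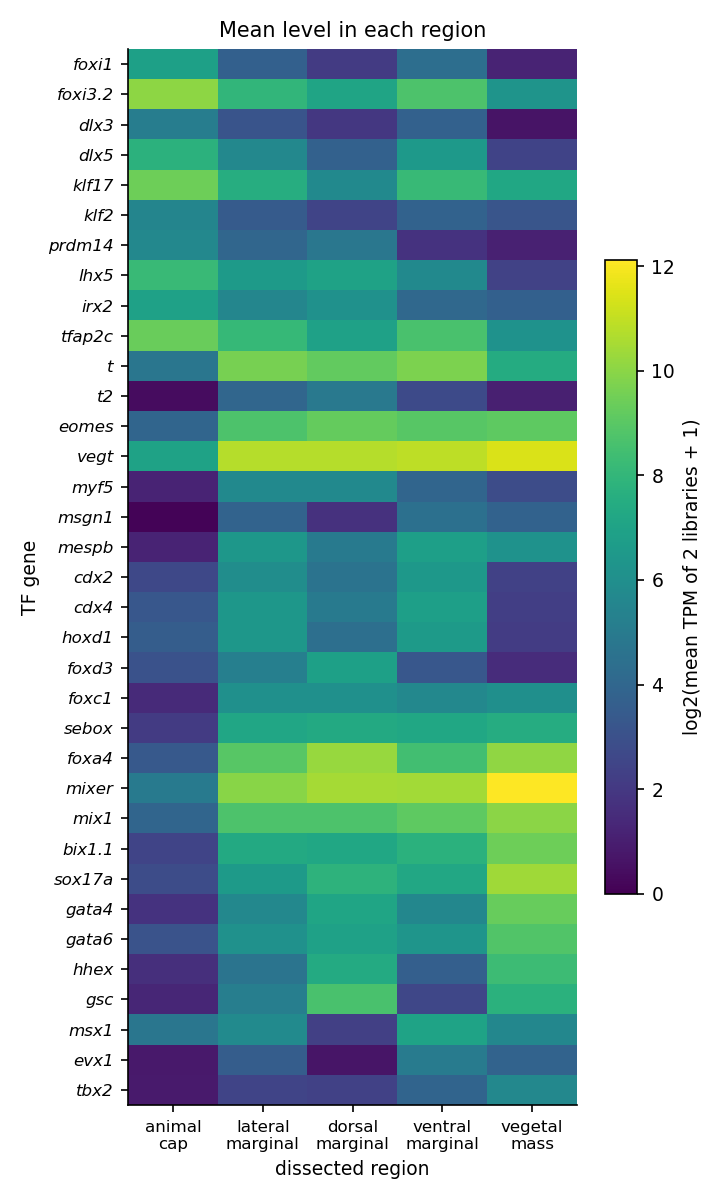
Mean level of TFs named in the text (rows) in the 5 dissected regions (columns), as log2 of the mean TPM of 2 libraries plus 1. Rows from foxi1 to tfap2c are brightest in the animal cap column, rows such as t, cdx4 and hoxd1 are brighter in the marginal columns than in the animal cap and vegetal columns, and rows such as mixer and sox17a are brightest in the vegetal mass.

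Fewer TFs were called between the lateral marginal zone and its neighbours in the marginal ring. Against the dorsal marginal zone, 24 TFs were called (2.62% of TFs tested, against 0.547% of all genes tested), 12 higher and 12 lower in the lateral libraries. Against the ventral marginal zone only tbx2 and msx1 were called, both lower in the lateral libraries (0.219% of TFs, against 0.0254% of all genes tested). An unadjusted p below 0.05 was reached by 145 TFs in the first and 67 TFs in the second of these comparisons. DESeq2 called 60 TFs against the dorsal and 22 against the ventral side, and a fit of only the regions compared called 91 and 60, so that the low counts do not show that the regions were alike. The largest called difference from the dorsal side among the 72 lateral TFs was in evx1, with 8.96 and 12.7 TPM in the lateral libraries against 0.78 and 0.48 TPM in the dorsal ones (log2 fold change 3.92 ± 0.32 (SE), adjusted p = 0.00197). It was followed by msx1, with 51.2 and 58.9 TPM against 3.37 and 4.59 TPM (log2 fold change 3.73 ± 0.16 (SE), adjusted p = 1.79e-05). In the other direction stood gsc, with 41.0 and 28.3 TPM against 309.6 and 470.2 TPM (log2 fold change -3.56 ± 0.4 (SE), adjusted p = 0.0199). Thus evx1 and msx1 were higher and gsc was lower on the lateral side. Mesogenin was also higher in the lateral than in the dorsal libraries (10.3 and 16.3 TPM against 1.54 and 3.11 TPM, log2 fold change 2.49 ± 0.28 (SE), adjusted p = 0.00613). On the ventral side, tbx2 had 4.89 and 4.34 TPM in the lateral libraries against 14.3 and 14.1 TPM in the ventral ones (log2 fold change -1.62 ± 0.15 (SE), adjusted p = 0.0233). For msx1 the lateral libraries had 51.2 and 58.9 TPM against 116 and 138 TPM (log2 fold change -1.21 ± 0.13 (SE), adjusted p = 0.0344). Neither comparison called a TF without the clutch block, where 70 and 29 TFs had an unadjusted p below 0.05. Against the dorsal side, 3 TFs were called without LM1, 3 without LM2 and 8 without the dorsal library of clutch 2. Against the ventral side, 0 TFs were called without LM1, LM2 or the ventral library of clutch 2.

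The clutches differed in the animal cap level, relative to the lateral one, of the 72 TFs enriched in the lateral marginal zone. Over the 72 lateral TFs, the median level in the animal cap was 10.6% of the lateral level in clutch 1 and 6.22% in clutch 2, and 53 of the 72 had the higher percentage in clutch 1. Over the 14800 genes tested with a TPM above 0 in all 4 libraries, this percentage was higher in clutch 1 for 43.5%. The summed mesoderm markers of the animal cap were 4.96% of the lateral sum in clutch 1 and 2.02% in clutch 2, and the endoderm markers 5.14% and 2.64%. The 16 animal cap TFs had a median level in the animal cap of 455% of the lateral level in clutch 1 and 299% in clutch 2, and all 16 had the higher percentage in clutch 1. With 1 library per region and clutch, a difference between clutches has no replicate and no test was run.

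**Figure D5:**
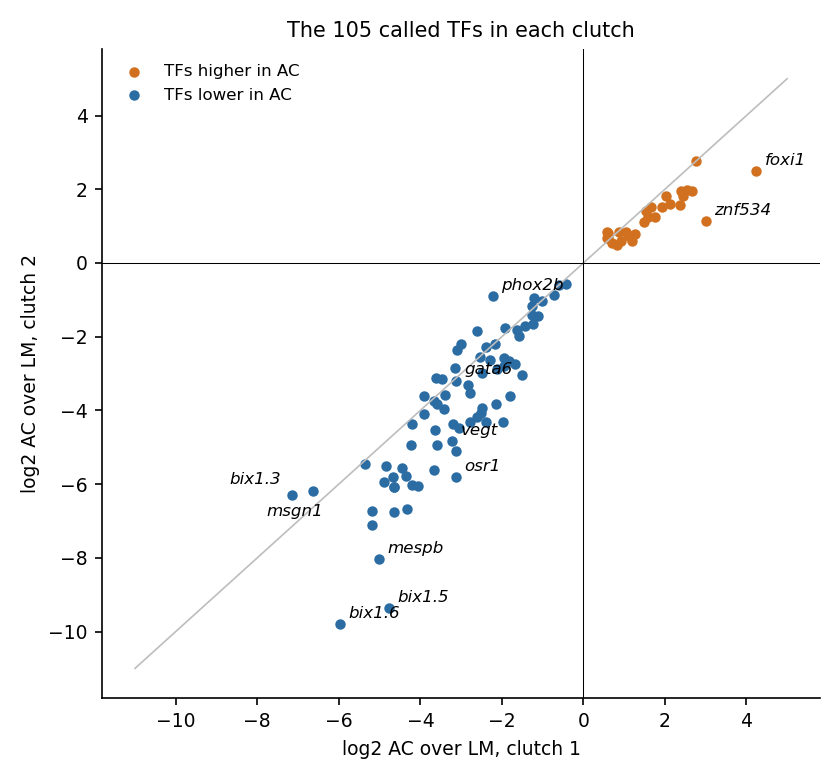
Log2 ratio of animal cap to lateral marginal zone in clutch 2 (vertical axis) against clutch 1 (horizontal axis) for the 105 called TFs, from TMM-normalized CPM with a prior count of 1, with the line of equal ratios. All 105 points lie in the quadrants of equal sign, and bix1.6 (-5.98 in clutch 1, -9.8 in clutch 2) and mespb (-5.01, -8.04) are among those that are lower in clutch 2.

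A further 4 TFs were examined because the study names them. The TEAD gene tead2 (Xetrov90019254), a nuclear partner of Yap, had 125 and 140.3 TPM in the animal caps, against 64.2 and 79.0 TPM in the lateral libraries (log2 fold change 0.93 ± 0.18 (SE), adjusted p = 0.0204). It was called below a TPM ratio of 2, and leaving out 1 library ended the call of tead2 without AC1 (0.125), AC2 (0.0999), LM1 (0.304) and LM2 (0.123). The Nodal signal mediator foxh1.2 had 147 and 192 TPM in the animal caps and 88.6 and 143 TPM in the lateral libraries (log2 fold change 0.62 ± 0.15 (SE), adjusted p = 0.059). For gpbp1 the animal caps had 16.3 and 14.4 TPM and the lateral libraries 27.6 and 20.5 TPM (log2 fold change -0.6 ± 0.16 (SE), adjusted p = 0.0987). Neither passed the threshold over the 10 region libraries. DESeq2 called both foxh1.2 (adjusted p = 0.0169) and gpbp1 (0.0388). So did the fit of the 4 libraries alone, with adjusted p of 0.0211 for foxh1.2 and 0.024 for gpbp1. The homeobox gene uncx was near the limit of detection, with 8 counts in the animal caps and 19 in the lateral libraries (log2 fold change -1.02 ± 0.7 (SE), adjusted p = 0.63).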

How the data were processed

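PolyA+ RNA of dissected regions was sequenced by the authors from non-stranded libraries as 50-bp single end reads. The deposited expected counts are the authors' RSEM 1.2.12 estimates of reads per v9 gene model (assembly 9.0), with a read that matches several genes divided among them, so that near-identical copies are uncertain. The deposited TPM values are the authors' RSEM output corrected for transcript length and depth. Strand was not recorded, so that reads of a gene and of one overlapping or antisense to it cannot be told apart.

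Expected counts were rounded, filtered by edgeR's filterByExpr on region groups, scaled by TMM and fitted with edgeR 4.0.16 (glmQLFit, robust, and glmQLFTest) in R 4.3.3, over the 10 region libraries with region and clutch as terms. P-values were adjusted by Benjamini-Hochberg over all 15727 genes tested, at a threshold of 0.05. TFs were matched by identifier to the study's TF catalog. Enriched TFs also needed a TPM ratio of 2 and a mean of 1 TPM in the higher region.

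Clutch was a block because replicate numbers mark clutches. Deviations of same-numbered libraries from their region means correlated between 0.636 and 0.803 over the 10 pairs of regions. Each clutch gave 1 library per region. The block removes the shift between clutches that all regions share. The p-values measure how far differences between regions varied between these 2 clutches, pooled over the 5 regions with 4 residual degrees of freedom. The spread was also moderated across genes, and other clutches are not covered. A fit of the compared regions alone leaves fewer than 4 residual degrees of freedom, so that its p-values lean more on this moderation. Where a region lacked a library in leave-one-out fits, its remaining library was taken to vary like the other regions.

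Alternatives were no block, DESeq2 1.42.0, library size alone, no filter, the compared regions alone, limma 3.58.1 on log2 TPM (pseudocounts 1 and 0.1), other limits of ratio and TPM, and each library or clutch left out. Named genes are the 10 TFs with symbols and the largest called change in each direction that moved alike in both clutches, members of 12 gene lists, the TFs named by the study and up to 2 unnamed models per direction. Osr2, foxd3 and the other TFs outside these rules were chosen after their values were seen, as were tbx2 and tfap2c among the list members. The gene lists also hold members that are not reported here by name. Members and lists were chosen with earlier results of these data known. Python 3.11.15, pandas 2.3.3, scipy 1.17.1 and matplotlib 3.10.9 were used for the rest.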

Additional observations from a re-analysis of the deposited data

How the results depend on the processing

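With 2 clutches, the results rest on pairing by clutch. Of 58 called TFs that the text describes, 16 were called in all 11 alternative fits and 0 changed sign. DESeq2 and library size scaling lost 0 of them, no replicate block 30, no filter 10, the compared regions alone 15, limma with a pseudocount of 1 lost 2 and with 0.1 lost 4, and the 4 leave-one-out fits lost 12 to 21.

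Without the replicate block the calls fell to 125 genes and 35 TFs between animal cap and lateral marginal zone, 1 TF enriched in the animal cap, 34 enriched in the lateral marginal zone, 0 TFs against the dorsal side, 0 against the ventral side and 72 against the vegetal mass. With the compared regions alone there were 960 genes (494 higher and 466 lower in the animal cap), and 91 TFs against the dorsal and 60 against the ventral marginal zone. DESeq2 called 60 TFs against the dorsal and 22 against the ventral marginal zone. Against the ventral side, library size alone gave 6 TFs, no filter 4, and both limma fits 0, while limma on log2(TPM + 0.1) gave 10 against the dorsal side. A ratio of 1.5 gave 27 TFs enriched in the animal cap, and a ratio of 4 gave 8.

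Leaving out 1 library at a time gave 252 to 355 genes and 57 to 72 TFs between animal cap and lateral marginal zone, 5 to 13 TFs enriched in the animal cap (5 without LM1, 9 without AC1), 3 to 28 TFs against the dorsal side, 0 to 3 against the ventral side and 196 to 408 against the vegetal mass. Not called in any fit, pou5f3.2 changed sign, at -0.02 without the block and with library size alone, 0 without the filter, -0.01 in both limma fits, and -0.16 to 0.2 in the leave-one-out fits, and sox3 was between -0.15 and 0.35 in the leave-one-out fits. In single clutches, without a test, 46 and 49 TFs were at least 2-fold higher and 101 and 96 at least 2-fold lower in the animal cap in clutches 1 and 2.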

Other observations

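The share of TFs called between animal cap and lateral marginal zone is given here for 11 kinds of DNA-binding domain. Of 130 homeobox TFs tested, 5 were higher and 29 lower in the animal cap (26.2% called), and of 71 basic helix-loop-helix TFs, 5 were higher and 12 lower (23.9%). Forkhead TFs had 2 higher and 6 lower among 38 (21.1%), T-box TFs 0 higher and 5 lower among 11 (45.5%), and GATA zinc finger TFs 0 higher and 4 lower among 11 (36.4%). Of 4 AP-2 TFs, 1 was higher and 1 lower (50%), and of 13 Ets TFs 1 was higher and 0 lower (7.69%). C2H2 zinc finger TFs had 7 higher and 14 lower among 274 (7.66%), HMG box TFs 0 and 3 among 41 (7.32%), bZIP TFs 2 and 0 among 50 (4%) and nuclear receptors 1 and 0 among 33 (3.03%). Over all TFs tested, 11.5% were called. These shares are descriptions, and the difference between domains was not tested.

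Outside the TF catalog, 455 genes were called. Among those with at least 1 TPM in the higher region, the gene model with the most negative fold change was Xetrov90029806, listed at 0 in both animal caps and at 17.2 and 12.8 TPM in the lateral libraries (0 counts against 238), which is at least 61.4-fold higher in the lateral marginal zone with the animal caps set to 3 counts over both libraries. In the other direction, the largest fitted change was that of Xetrov90028430, at 3.39 and 4.4 TPM in the animal caps and 0 and 0.12 TPM in the lateral libraries (27 and 21 counts against 0 and 1). It was followed by Xetrov90003630, with 16.96 and 24.5 TPM in the animal caps, against 1.86 and 3.62 TPM in the lateral libraries (log2 fold change 3.02 ± 0.25 (SE), adjusted p = 0.000144 by edgeR's quasi-likelihood test).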
